A study of Mus musculus with 13 samples.

Results

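The genes described here are 8 subunits of the transcription factor AP-1, namely Fos, Fosb, Fosl2, Jun, Junb, Jund, Batf and Atf3, as measured in gamma delta intraepithelial lymphocytes (gd IELs) of the mouse small intestine. They were chosen by gene symbol from the deposited table of 21084 genes. All 8 were among the 15835 genes that passed the filter on low counts. The question put to them was whether the high level of Fos and Jun in the control libraries goes with markers of cell-isolation stress or with treatment.

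The series compared gd IELs of wild-type mice that had received an antibody and then a cytokine or its vehicle. The antibody, given intraperitoneally, was either 200 ug of UC7-13D5, which binds the gamma delta form of the T cell receptor, or control Armenian hamster IgG. By the treatment protocol it was given both 48 and 24 h before cell isolation, whereas the design text can be read as 1 dose or the other. Murine interferon alpha (IFNa, 1 ug) or phosphate buffered saline (PBS) followed intravenously 5 h before isolation. The 4 groups were IgG-PBS with 3 libraries, IgG-IFNa with 4, UC7-PBS with 3 and UC7-IFNa with 3. Every group therefore received an injected hamster immunoglobulin, an intravenous injection and cell sorting, and no group was left untreated. Strain, sex and age, the duration and order of the isolations, and whether a library held cells of 1 mouse or of several are facts not given in the sources used here. All p-values measure only the spread between these libraries.

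AP-1 is a dimer of basic leucine zipper proteins. Fos proteins pair with Jun proteins, and Jun proteins can also pair with each other, with Batf and with Atf3. In T cells AP-1 acts downstream of the T cell receptor and MAP kinases, often together with NFAT. Fos, Fosb, Jun and Junb are immediate early genes, transcribed within minutes of a stimulus into short-lived transcripts, and enzymatic or mechanical dissociation of a tissue is a known stimulus for them. Batf is a lymphoid subunit without a transactivation domain, and Atf3 is a stress-induced member of the ATF family.

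The sequences shown here are the 250 bases before the annotated start of Fos and Jun, the subunits that passed the test in 1 comparison, and of Fosl2, whose difference there had the opposite sign. They come from RefSeq on build GRCm38.p6, where all 8 genes matched by symbol, and run 5′ to 3′ on the gene's strand. Fos is at chr12:85473640-85473889 on the plus strand, Jun at chr4:95052223-95052472 on the minus strand and Fosl2 at chr5:32136222-32136471 on the plus strand. Capitals mark matches to the motifs searched.
Fos: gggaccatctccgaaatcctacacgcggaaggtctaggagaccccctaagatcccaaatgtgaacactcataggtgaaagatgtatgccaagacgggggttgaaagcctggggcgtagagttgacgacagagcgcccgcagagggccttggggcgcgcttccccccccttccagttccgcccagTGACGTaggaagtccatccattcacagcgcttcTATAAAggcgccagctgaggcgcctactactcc
Jun: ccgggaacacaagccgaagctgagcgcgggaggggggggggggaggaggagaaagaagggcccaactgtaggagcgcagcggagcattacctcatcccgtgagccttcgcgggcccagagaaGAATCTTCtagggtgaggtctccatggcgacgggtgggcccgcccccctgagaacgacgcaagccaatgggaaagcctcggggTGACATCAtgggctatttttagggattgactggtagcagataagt
Fosl2: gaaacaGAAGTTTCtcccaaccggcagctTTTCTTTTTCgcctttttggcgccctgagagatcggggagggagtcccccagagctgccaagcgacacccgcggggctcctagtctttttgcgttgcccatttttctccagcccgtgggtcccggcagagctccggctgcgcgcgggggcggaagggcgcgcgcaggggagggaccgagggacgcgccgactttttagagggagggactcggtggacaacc

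Motifs were searched on both strands in windows of 300 bases (these 250 and the next 50), and each share is of all 32851 such windows. TGACGT, the shorter form of the cyclic AMP response element, was present in Fos at position -66 from the start, Batf (-98) and Atf3 (-8), and in 7.51% of windows. The full element, TGACGTCA, was in 1.79% of windows and in none of the 8, and it contains TGACGT. TGACATCA, the longer AP-1-like site through which Jun is known to regulate its own gene, was in Jun at -45 and in 3.62% of windows. The AP-1 site TGANTCA was in 7.81% of windows and in none of the 8. A pair of GAAA with any 2 bases between them, a core of the interferon-stimulated response element, matched Fosl2 at -221 on the reverse strand and 3.44% of windows, and the interferon gamma-type STAT site TTCNNNGAA was in 8.30% of windows and in none of the 8. GAANNTTC, the core of a heat-shock element, was in Fosl2 (-244), in Jun (-128) and in 7.86% of windows. TATAAA was in Fos (-33), in Junb (beginning at the annotated start itself) and in 13.6% of windows. The CArG box, the site of serum response factor, was in 1.63% of windows and in none of the 8. The counts over the 8 include the window of Jund, whose annotated start may not be its main one. A match is a description of letters and not a bound site, and no match says only that these letters are not in this window.

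Library totals ran from 19867201 to 26895876 estimated counts. All 10 markers of gd IELs were detected in every library, and IFNa raised 8 of 10 interferon-stimulated check genes after IgG and all 10 after UC7-13D5 (edgeR quasi-likelihood test, Benjamini-Hochberg adjusted p under 0.05). Over all tested genes 0.619% passed with a higher level after IgG and 0.335% after UC7-13D5. UC7-IFNa library 2 stood apart: it lay at 108 on the first principal component, where the other 12 lay between -26.5 and 11.1, and 18S ribosomal RNA (Rn18s) made up 1.14% of its counts against 0.0866% to 0.333%. Y-linked transcripts were at most 0.310 CPM (counts scaled to a common library total) in the IgG-PBS libraries, at 2.15 and 1.67 in IgG-IFNa libraries 1 and 2, at 210 and 320 in IgG-IFNa libraries 3 and 4, and at 132 or more in all UC7-13D5 libraries. Xist, an X-linked transcript, was at 265 to 345 CPM in IgG-PBS and at 204 and 215 in IgG-IFNa libraries 1 and 2. It was at 68.3 and 23.4 in IgG-IFNa libraries 3 and 4, which thus held both kinds, and at most 1.08 in all UC7-13D5 libraries. So sex-linked transcripts were unequal between the groups. Values without IgG-IFNa libraries 3 and 4, or with the Y-linked share as a covariate, stand beside the results they move. That share hardly varied within IgG-PBS or within UC7-PBS. The covariate fit thus rests mainly on IgG-IFNa libraries 1 and 2 against 3 and 4, and on UC7-IFNa library 2. It cannot separate the antibody from sex-linked transcripts among the PBS libraries. Levels are CPM scaled between libraries by TMM, the trimmed mean of log ratios, unless stated otherwise.

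Among the Fos proteins, Fos (ENSMUSG00000021250, mm39 chr12:85520664-85524047, plus strand) is the main partner of Jun. Fos was at 1727, 1369 and 1425 CPM in the 3 IgG-PBS libraries and at 800, 878, 643 and 661 in the 4 IgG-IFNa libraries. The UC7-PBS libraries held 905, 914 and 798 and the UC7-IFNa libraries 543, 579 and 600. The IgG-PBS libraries were the highest of all 13 and the UC7-IFNa libraries the lowest, while UC7-PBS and IgG-IFNa overlapped. After IgG, IFNa was followed by a Fos level 2.02-fold lower than after PBS (log2 fold change -1.02, SE 0.14, edgeR adjusted p = 0.00379). Fos ranked 14 among all genes by p in this comparison, in which 0.827% of tested genes passed the threshold and 0.208% did so with a lower level. It stayed past the threshold when any 1 of the 13 libraries was left out, at -1.10 to -0.90. Without the IgG-IFNa libraries that held Y-linked transcripts the difference was -0.84 and missed the threshold (edgeR adjusted p = 0.123). The IgG-IFNa libraries that remain, 1 and 2, held 800 and 878 CPM, below every IgG-PBS library. With the Y-linked share as a covariate Fos still passed (-0.90, edgeR adjusted p = 0.0249).

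After UC7-13D5, Fos was again lower in all 3 IFNa libraries than in all 3 PBS libraries, by -0.60 (SE 0.16), but missed the threshold (edgeR adjusted p = 0.202). In this comparison 0.36% of tested genes were called, and 12% had groups that did not overlap. All 6 of these libraries held Y-linked transcripts, at 132 CPM in UC7-IFNa library 2 and at 300 to 329 CPM in the others. Fitted with the Y-linked share as a covariate, the Fos difference with IFNa after UC7-13D5 was -0.65 (edgeR adjusted p = 0.0981). The comparison of UC7-13D5 with IgG among the PBS libraries gave -0.79 (SE 0.16), the 8th smallest p of all genes, with an adjusted p of 0.196 by edgeR. There 0.00632% of genes, a single gene, passed the threshold. The antibody and sex-linked transcripts cannot be told apart among the PBS libraries, since Y-linked transcripts were high in all 3 UC7-PBS libraries and near 0 in all 3 IgG-PBS libraries. With the Y-linked share as a covariate the Fos difference there was -0.50 (edgeR adjusted p = 0.847). DESeq2 called Fos in both of these comparisons, with adjusted p of 0.0191 and 0.000854. Among the IFNa libraries UC7-13D5 gave -0.38 (SE 0.15, edgeR adjusted p = 0.586), again with groups that did not overlap, as for 6.78% of genes.

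Fosb (ENSMUSG00000003545, chr7:19036621-19043976, minus strand), another immediate early Fos protein, gave far fewer counts. It was at 34.7, 31.6 and 30.4 CPM in IgG-PBS and at 17.0, 12.9, 14.6 and 9.45 in IgG-IFNa. In UC7-PBS it was at 20.0, 21.2 and 16.2, and in UC7-IFNa at 8.55, 24.2 and 8.52. The IgG-PBS libraries were above all others, and the other 3 groups overlapped. The difference with IFNa after IgG was -1.26 (SE 0.30, edgeR adjusted p = 0.0732), just short of the threshold, and it was -1.11 (edgeR adjusted p = 0.601) without the Y-linked IgG-IFNa libraries. After UC7-13D5 it was -0.48 (SE 0.33, edgeR adjusted p = 0.777), and it rested on library 2: without that library it was -1.17 and passed (edgeR adjusted p = 0.0138). The comparison after IgG, which does not contain library 2 but shares its spread, also passed without it (-1.26, edgeR adjusted p = 0.000816). UC7-13D5 against IgG with PBS gave -0.76 (SE 0.33, edgeR adjusted p = 0.893), and with the Y-linked share as a covariate the sign turned, to 0.24 (edgeR adjusted p = 0.937). The covariate cannot separate the antibody from sex-linked transcripts in that comparison.

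Fosl2 (ENSMUSG00000029135, chr5:32293145-32315186, plus strand), a Fos protein with slower kinetics than Fos, had differences of the opposite sign. It was at 210, 197 and 198 CPM in IgG-PBS and at 246, 252, 404 and 336 in IgG-IFNa. In UC7-PBS it was at 268, 230 and 257 and in UC7-IFNa at 244, 445 and 267. The IgG-PBS libraries were the lowest of the 13 and lay close together, and the other groups overlapped. The difference with IFNa after IgG was 0.62 (SE 0.21, edgeR adjusted p = 0.256), and without UC7-IFNa library 2 it passed the threshold at the same size (0.62, edgeR adjusted p = 0.0362). Without the Y-linked IgG-IFNa libraries, which held the highest levels of their group, it was 0.30 (edgeR adjusted p = 0.942). With IFNa after UC7-13D5 it was 0.34 (SE 0.22, edgeR adjusted p = 0.760), which was 0.015 without library 2. For UC7-13D5 against IgG with PBS it was 0.32 (SE 0.22, edgeR adjusted p = 0.999864).

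The balance of Fosl2 to Fos was followed as a ratio of CPM, chosen after the values had been seen. It was 0.122 to 0.144 in IgG-PBS, 0.287 to 0.628 in IgG-IFNa, 0.252 to 0.322 in UC7-PBS and 0.445 to 0.769 in UC7-IFNa. The ratio was thus lowest in IgG-PBS, and its highest value, 0.769, was in UC7-IFNa library 2. UC7-IFNa libraries 1 and 3, at 0.450 and 0.445, lay within the range of IgG-IFNa and above that of UC7-PBS. CPM is not scaled to transcript length, so the ratio is no fraction of transcripts.

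**Figure D1:**
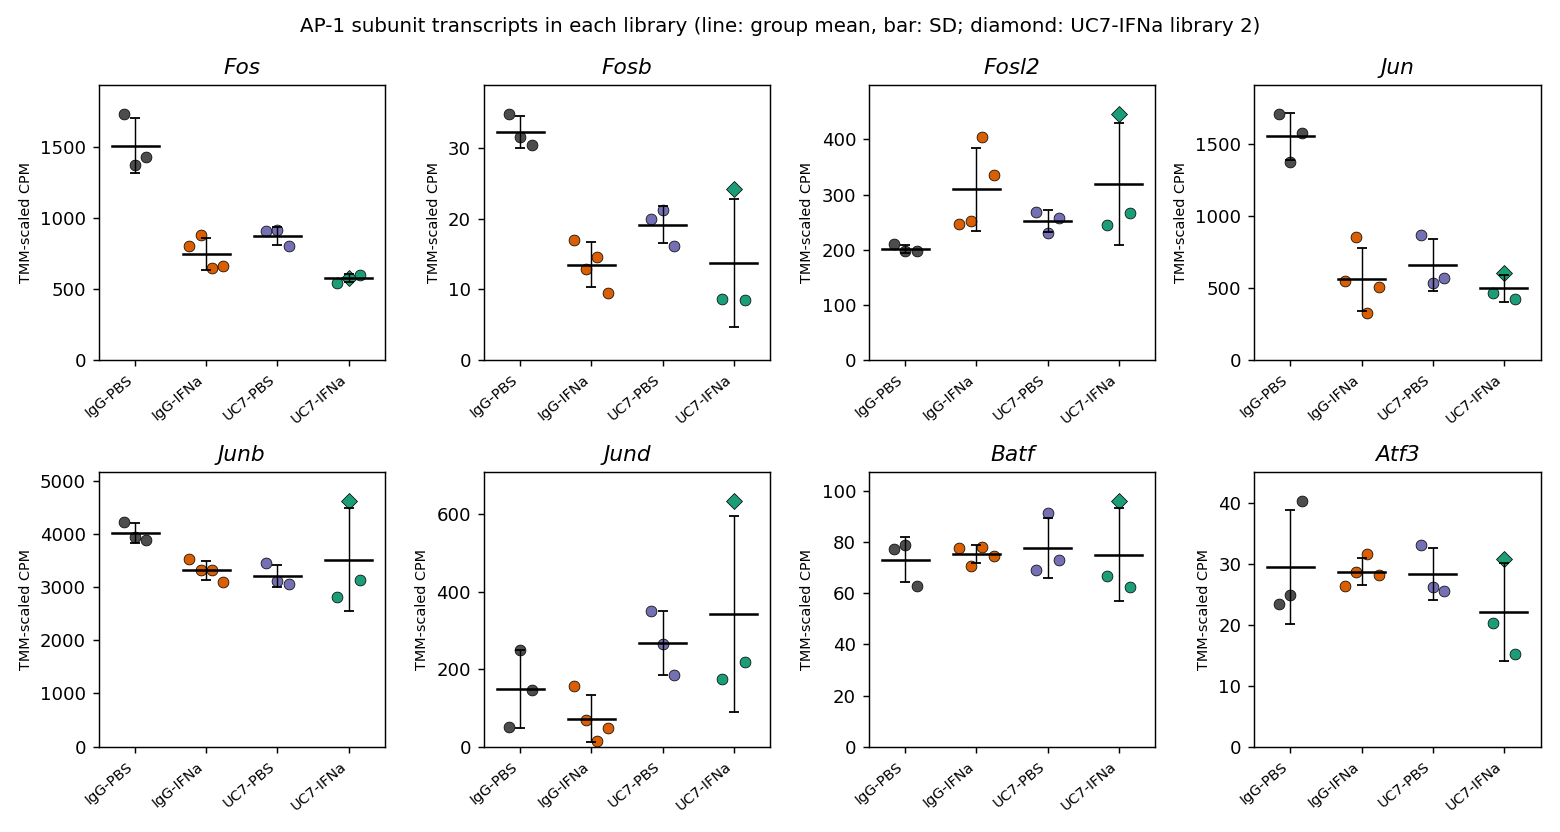
Level of each subunit in each of the 13 libraries (y axis: TMM-scaled CPM, linear from 0; x axis: group; horizontal line: group mean; bar: SD; diamond: UC7-IFNa library 2). Fos, Fosb and Jun stand highest in all 3 IgG-PBS libraries, Fosl2 stands lowest there, and Jund spreads from 14.9 to 634 CPM without such an order.

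Of the Jun proteins, Jun (ENSMUSG00000052684, chr4:94937271-94940459, minus strand) is the classic transactivating partner of Fos. It was at 1709, 1381 and 1579 CPM in IgG-PBS and at 549, 858, 325 and 508 in IgG-IFNa. The UC7-PBS libraries had 872, 538 and 571 and the UC7-IFNa libraries 466, 602 and 426. All 3 IgG-PBS libraries were above the other 10, which overlapped across their groups. With IFNa after IgG, Jun was 2.78-fold lower (log2 fold change -1.47, SE 0.26, edgeR adjusted p = 0.0159). This call was lost without IgG-PBS library 1 (-1.40, edgeR adjusted p = 0.0836), without IgG-PBS library 3 (-1.46, edgeR adjusted p = 0.0835) or without IgG-IFNa library 4 (-1.43, edgeR adjusted p = 0.0664). It was also lost with the Y-linked share as a covariate (-1.21, edgeR adjusted p = 0.109) and without the IgG-IFNa libraries that held Y-linked transcripts (-1.14, edgeR adjusted p = 0.227).

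After UC7-13D5 the Jun difference with IFNa was -0.41 (SE 0.28, edgeR adjusted p = 0.774) and the groups overlapped. UC7-13D5 against IgG with PBS gave -1.24 (SE 0.28, edgeR adjusted p = 0.275), with groups that did not overlap and the 27th smallest p of all genes. That comparison passed when its 2 groups alone were fitted (-1.24, edgeR adjusted p = 0.0261) and with DESeq2 (-1.23, adjusted p = 0.00875), whereas with the Y-linked share as a covariate it was -0.56 (edgeR adjusted p = 0.890). The covariate cannot separate the antibody from sex-linked transcripts there. Among the IFNa libraries the Jun difference of UC7-13D5 against IgG was -0.17 (95% interval -0.72 to 0.38). The difference between the IFNa effects after the 2 antibodies, tested as an interaction, was 1.07 for Jun (95% interval 0.26 to 1.87, unadjusted p = 0.0127, edgeR adjusted p = 0.999939). For Fos it was 0.41 (SE 0.21) and for Fosb 0.78 (SE 0.45), with the same adjusted p by edgeR. No gene passed the interaction test with edgeR, where 502 of all genes (3.17%) had an unadjusted p under 0.05, and 5 passed with DESeq2.

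Junb (ENSMUSG00000052837, chr8:85701113-85705347, minus strand), which transactivates less strongly than Jun, had the highest counts of the 8. It was at 4227, 3948 and 3877 CPM in IgG-PBS and at 3524, 3316, 3324 and 3093 in IgG-IFNa. The levels were 3454, 3110 and 3067 in UC7-PBS and 2806, 4617 and 3134 in UC7-IFNa. Its IgG-PBS libraries did not overlap with IgG-IFNa or UC7-PBS, but the differences were small: -0.28 (SE 0.16, edgeR adjusted p = 0.566) and -0.32 (SE 0.17, edgeR adjusted p = 0.999864). With the Y-linked share as a covariate the second of these was 0.032 (edgeR adjusted p = 0.991), with the same limit as for Jun. UC7-IFNa library 2 alone exceeded the IgG-PBS libraries. The ratio of Junb to Jun in CPM, also chosen after the values had been seen, was 2.46 to 2.86 in IgG-PBS and 3.87 to 10.2 across the other groups.

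Jund (ENSMUSG00000071076, chr8:71151599-71153265, plus strand), a Jun protein usually described as constitutive, was the most variable of the 8 within groups. It was at 50.4, 250 and 146 CPM in IgG-PBS and at 158, 67.8, 14.9 and 49.2 in IgG-IFNa. In UC7-PBS it was at 350, 266 and 186 and in UC7-IFNa at 174, 634 and 220. Within a group the highest library exceeded the lowest 4.96-fold, 10.6-fold, 1.89-fold and 3.64-fold in that order. All UC7-IFNa libraries were above all IgG-IFNa libraries, and the difference of 2.24 had a wide error (SE 0.76, edgeR adjusted p = 0.517). With IFNa after IgG the difference was -1.04 (95% interval -2.68 to 0.61), so that neither a fall nor a rise of 1.5-fold lies outside the interval. Jund had the most GC-rich transcript of the 8 at 67.1%, above 99.9% of tested genes, followed by Junb at 62.6%. In UC7-IFNa library 2, which held the highest Jund and Junb, the 464 expressed genes with a GC content of at least 58.8% lay a median of 0.42 (log2) above their mean over libraries. That median was -0.16 to 0.088 in the other libraries, including IgG-IFNa library 3, where it was 0.010 and Jund was lowest. Whether GC content plays a part in the Jund values was not tested.

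Batf (ENSMUSG00000034266, chr12:85733443-85755861, plus strand), which pairs with Jun proteins, overlapped between all groups. It was at 77.5, 79.0 and 63.0 CPM in IgG-PBS and at 77.9, 70.5, 78.3 and 74.6 in IgG-IFNa. After UC7-13D5 the levels were 69.3, 91.3 and 73.0 with PBS and 66.8, 96.1 and 62.5 with IFNa. The difference with IFNa after IgG was 0.042 with a 95% interval of -0.31 to 0.39. Batf lies 209395 bases from Fos on chromosome 12 (mm39), and its level did not follow that of Fos over the 13 libraries (r = -0.045, a description).

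Atf3 (ENSMUSG00000026628, chr1:190902493-190950236, minus strand) gave few counts throughout, at 23.4, 24.8 and 40.3 CPM in IgG-PBS and 26.3, 28.7, 31.6 and 28.1 in IgG-IFNa. In UC7-PBS it was at 33.1, 26.2 and 25.5 and in UC7-IFNa at 20.3, 30.8 and 15.2. All groups overlapped. The difference with IFNa after IgG was -0.041 (95% interval -0.53 to 0.45) and after UC7-13D5 -0.36 (95% interval -0.89 to 0.17).

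Counted together, 2 of the 8 subunits, Fos and Jun, passed the threshold with IFNa after IgG, both with a lower level, where 0.827% of all tested genes passed (0.208% lower and 0.619% higher). Neither passed without the IgG-IFNa libraries that held Y-linked transcripts. DESeq2 and voom each called 3. Over all genes DESeq2 called 406 of 15835 there, and voom no more than that. In 4 of 8 the groups did not overlap with lower values (6.91% of all genes) and in 1 of 8 with higher values (7.09%), and 4 of 8 had an unadjusted p under 0.05 (10.9%). The median log2 fold change was -0.65, and over all tested genes -0.012. With IFNa after UC7-13D5, 0 of 8 passed by edgeR or voom and 1 by DESeq2, where 0.36% of all genes passed by edgeR and 141 of 15835 by DESeq2. Fos was the 1 of 8 whose groups did not overlap with lower values (6.09% of all genes, with 5.89% higher) and the 1 of 8 with an unadjusted p under 0.05 (7.59%). The median there was -0.21, and 0.022 over all genes.

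UC7-13D5 against IgG with PBS called 0 of 8 by edgeR or voom and 2 by DESeq2, where edgeR called 0.00632% of all genes and DESeq2 69 of 15835. In 4 of 8 the groups did not overlap with lower values (5.8% of all genes) and in 1 of 8, Fosl2, with higher values (6.6%), and 3 of 8 had an unadjusted p under 0.05 (5%). This comparison and that of IFNa after IgG share the IgG-PBS libraries, so the values of Fos, Fosb, Jun and Fosl2 in them are not independent. UC7-13D5 against IgG with IFNa called 0 of 8 by edgeR, DESeq2 or voom, where edgeR called 0.0758% of all genes. There the groups did not overlap for Fos, with lower values (3.05% of all genes), and for Jund, with higher values (3.73%), and these were the 2 of 8 with an unadjusted p under 0.05 (7.19%).

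**Figure D2:**
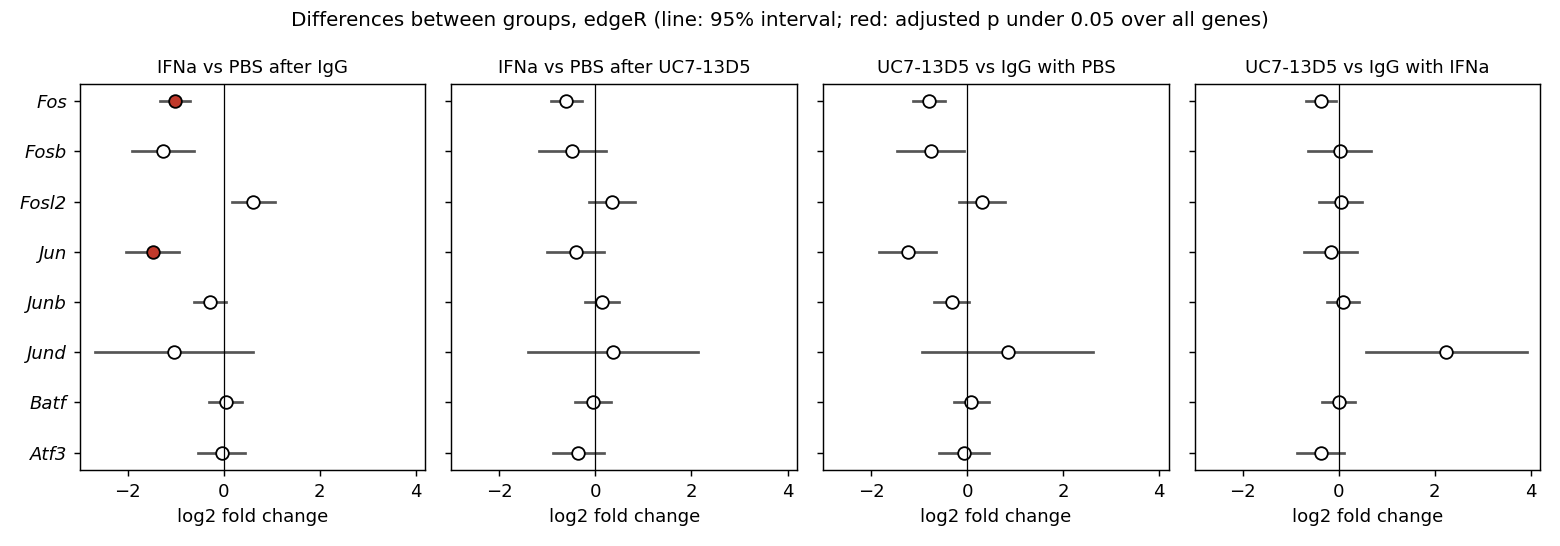
Log2 fold change of each subunit in 4 comparisons (x axis: log2 fold change, edgeR; line: 95% interval; red: adjusted p under 0.05 over all 15835 genes). Only Fos (-1.02) and Jun (-1.47) after IgG are red, and the intervals of Jund are the widest.

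Levels of different genes can be compared only per transcript length. CPM per kilobase of exon sequence (GENCODE M21 exon lengths) gave Junb a mean share of the summed level of the 8 subunits of 57.1% ± 0.476 (SD over 3 libraries) for IgG-PBS, 69.5% ± 3.86 (over 4) for IgG-IFNa, 62.7% ± 2.01 (over 3) for UC7-PBS and 68.5% ± 0.761 (over 3) for UC7-IFNa. Fos made up 20.9% ± 1.63, 15.2% ± 1.20, 16.7% ± 1.14 and 11.4% ± 2.67 in the same order, and Jun 16.0% ± 1.21, 8.35% ± 2.85, 9.19% ± 1.71 and 7.13% ± 0.937. Junb thus held the largest share in every library, and the share of Jun was larger in each IgG-PBS library than in any other. Fosb, with an exon length of 6243 bases, made up at most 0.172% of the sum. The shares are parts of a whole, so a smaller share of Fos and Jun enlarges that of Junb with no difference in its own level.

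**Figure D3:**
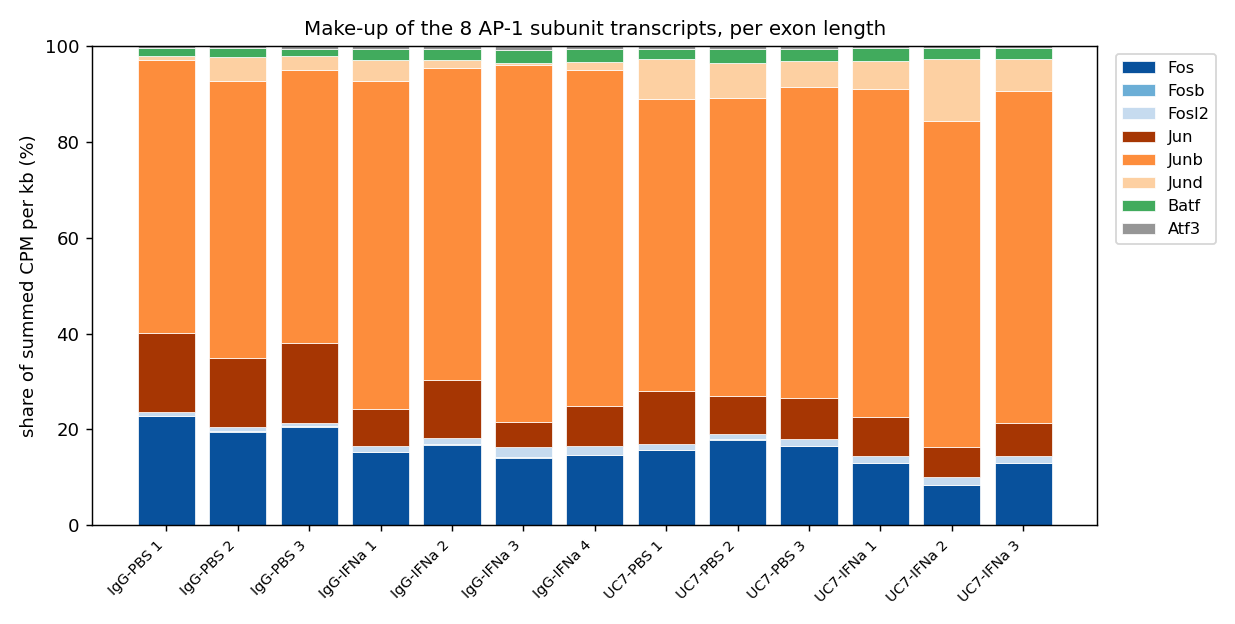
Make-up of the 8 subunit transcripts in each library (y axis: share of the summed CPM per kb of exon, in percent; x axis: library). Junb fills 56.9% to 74.3% of every bar, and the Jun segment is widest in the 3 IgG-PBS libraries.

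Over the 13 libraries Fos and Jun had a Pearson correlation of 0.91 in log2 CPM, which was 0.68 after the group means were removed. Fosb and Junb correlated at 0.80, and at 0.93 within groups, where UC7-IFNa library 2 exceeds the rest of its group in both. Fos and Fosl2 had -0.72, and -0.39 within groups. These are descriptions over libraries that share group, depth and handling. The genes most like Fos among 8675 expressed genes were Egr1 (0.93), Myc, Cd69, Ifng and Zfp36, with correlations down to 0.92. Within groups these were 0.95 for Egr1, 0.54 for Myc, 0.73 for Cd69, 0.64 for Ifng and 0.42 for Zfp36. Those most like Jun were Tagap (0.92), Mylip, Zfp36, Dnajb4 and Myc, with 0.82, 0.66, 0.65, 0.62 and 0.89 within groups in that order. Batf was most like Atpif1 (0.93), Pdcd5, Cox7b, Smim4 and Mrpl57, and Atf3 like Lrrc20 (0.86), Gstm4, Pacsin1, Pabpc1 and Pum2.

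The genes most like Jund, listed after its values had been seen, were Pnrc1 (0.97, and 0.96 within groups), Sft2d3, Mlycd, Ccny and Dtnbp1. Pnrc1, a coregulator of nuclear receptors, ran from 251 to 991 CPM. Its transcript has a GC content of 51.6%. The others have 49.9% (Sft2d3), 59.3% (Mlycd), 44.3% (Ccny) and 55.7% (Dtnbp1). They lie below the 67.1% of Jund, as do 99.9% of tested genes, so this says nothing on whether GC content plays a part. Mlycd exceeds the 58.8% that bounded the GC-rich genes above. In each of the 4 groups the library with the highest Jund was also the one with the highest level of Pnrc1.

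**Figure D4:**
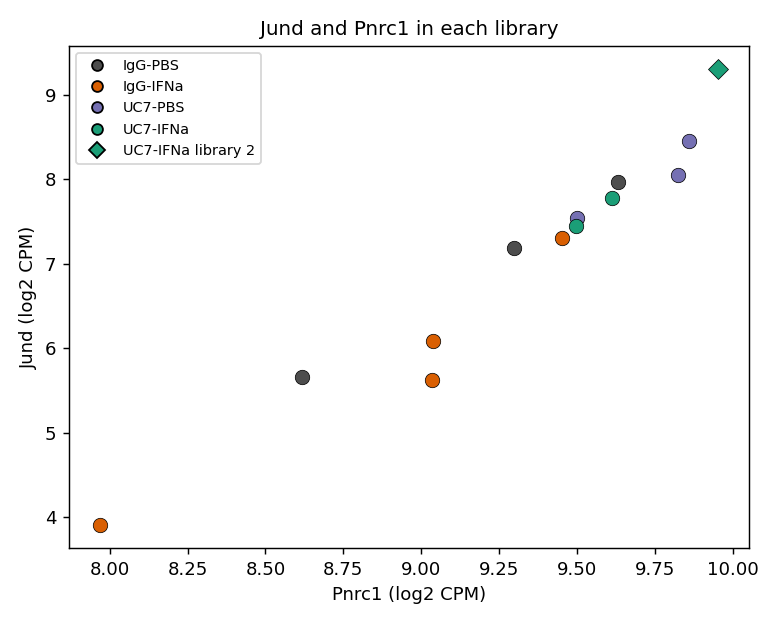
Jund (y axis) against Pnrc1 (x axis) in log2 CPM, 1 point per library, coloured by group, with UC7-IFNa library 2 as a diamond. The 13 points rise together from IgG-IFNa library 3 (14.9 CPM of Jund) to UC7-IFNa library 2 (634 CPM), across groups and within them.

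Genes that cell isolation is known to induce were counted next to the subunits. Of 28 other immediate early genes, 4 fell with IFNa after IgG and none rose (edgeR, where 0.208% of all tested genes fell and 0.619% rose). They were Zfp36, an RNA-binding protein that destabilises cytokine messages (-1.0, SE 0.18, edgeR adjusted p = 0.0174), Ier5 (-0.72), the growth regulator Myc (-0.99) and the activation marker Cd69 (-0.88). The list's median was -0.35, 22 of 28 were negative, and in 12 the groups did not overlap with lower values, where 6.91% of all genes had that pattern. Without the Y-linked IgG-IFNa libraries the median was -0.26 and none of the 4 passed. After UC7-13D5 the median was -0.20 with 21 of 28 negative, and -0.45 without UC7-IFNa library 2. There 0 were called by edgeR or voom and 4 by DESeq2 (141 of all 15835 genes), and 6 had an unadjusted p under 0.05 (7.59% of all genes). Egr1, a zinc finger factor induced alongside Fos, had -0.81 there (SE 0.18, edgeR adjusted p = 0.102). UC7-13D5 against IgG with PBS gave a median of -0.19, with 12 lower (5.8% of all genes) and 3 higher (6.6%) in groups that did not overlap. By edgeR or voom 0 were called and by DESeq2 1 (69 of all 15835 genes), and 7 had an unadjusted p under 0.05 (5% of all genes). With the Y-linked share as a covariate that median was 0.25, in a fit that cannot separate the antibody from sex-linked transcripts there.

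Of 16 heat-shock chaperones, 1 fell with IFNa after IgG (0.208% of all genes), Dnajb4 (-0.87, SE 0.17, edgeR adjusted p = 0.0301), and the median was -0.38 with 13 negative. Without the Y-linked IgG-IFNa libraries the median was -0.41 and Dnajb4 missed the threshold (-0.85, edgeR adjusted p = 0.388). After UC7-13D5 the median was 0.32, with 15 of 16 positive, and it was 0.12 without UC7-IFNa library 2. No tool called any of them (0 by edgeR, voom or DESeq2), and 2 had an unadjusted p under 0.05 (7.59% of all genes). UC7-13D5 against IgG with PBS had a median of -0.89, all 16 negative and 12 in groups that did not overlap, where 5.8% of all genes had that pattern with lower values. By edgeR or voom 0 were called and by DESeq2 3 (69 of all 15835 genes), and 11 had an unadjusted p under 0.05 (5% of all genes). Hspa8, the constitutive HSP70, had -1.04 there (SE 0.21, edgeR adjusted p = 0.201). With IFNa after UC7-13D5 the chaperone median and Fos (-0.60) thus differed in sign, and edgeR called neither Fos nor a chaperone. For UC7-13D5 against IgG with IFNa the chaperone median was -0.17 and Fos was at -0.38. Fos and the chaperone median were also negative with IFNa after IgG and for UC7-13D5 against IgG with PBS.

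As a mean of centred log2 CPM, the immediate early list scored 0.23 to 0.32 in IgG-PBS, -0.38 to 0.0040 in IgG-IFNa, 0.081 to 0.22 in UC7-PBS and -0.36 to 0.17 in UC7-IFNa, so it was highest in the libraries where Fos and Jun were highest. The chaperones scored 0.29 to 0.73, -0.35 to 0.43, -0.71 to -0.12 and -0.58 to 0.34 in the same order, with IgG-PBS and IgG-IFNa overlapping. IgG-IFNa libraries 2 and 4 scored 0.43 and 0.39 on the chaperones, above IgG-PBS library 2 at 0.29, yet held 878 and 661 CPM of Fos against 1369. UC7-PBS scored below IgG-PBS on both lists. The part of isolation stress in the subunit levels was not tested, since both lists hold genes that treatment can also move and the times and order of the isolations are not known here.

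**Figure D5:**
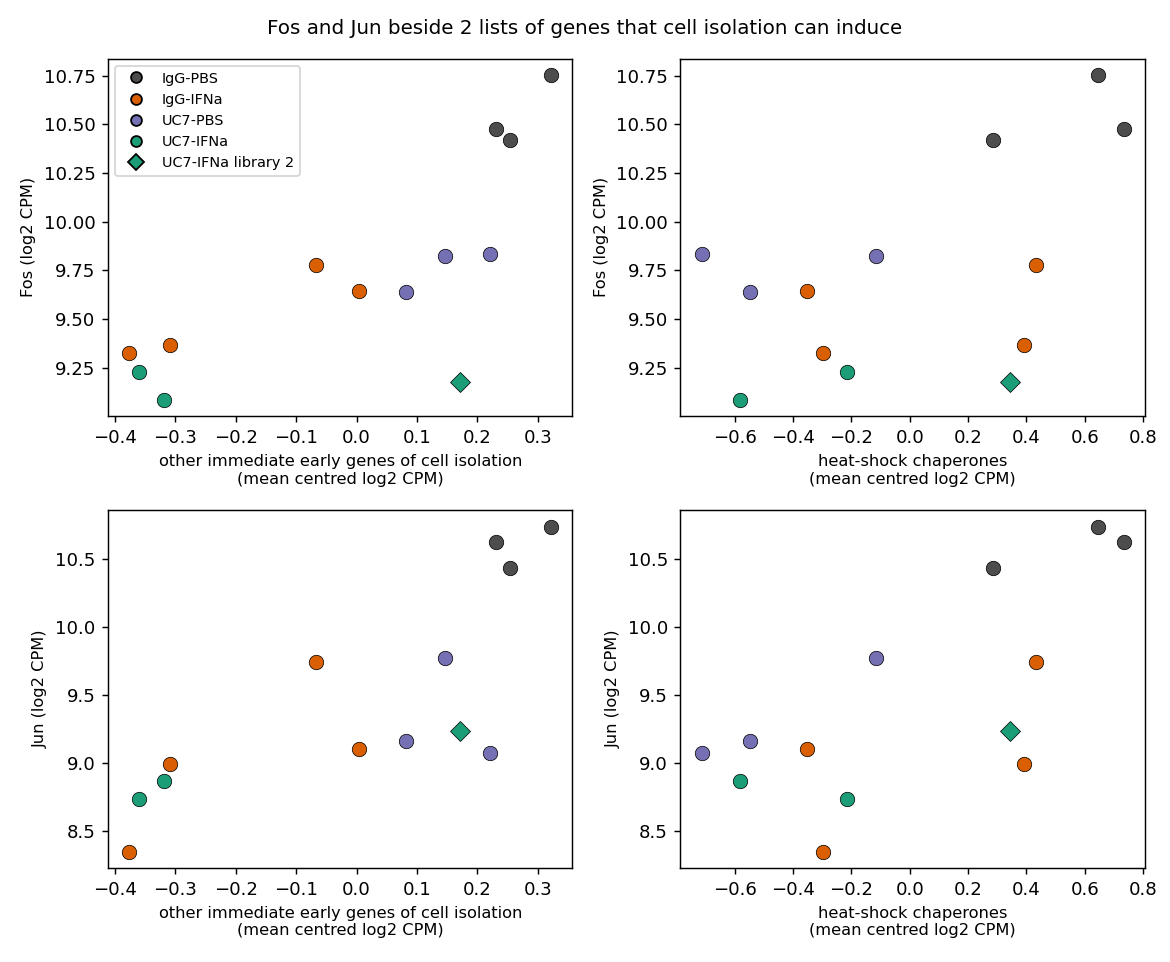
Fos (upper panels) and Jun (lower panels) in log2 CPM against the mean centred log2 CPM of 28 other immediate early genes (left) and 16 heat-shock chaperones (right), 1 point per library. The 3 IgG-PBS libraries lie highest in all panels, whereas 3 other libraries (IgG-IFNa 2 and 4 and UC7-IFNa 2) reach chaperone scores of 0.34 to 0.43 with Fos at or below 878 CPM.

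Other features of the libraries differed between groups. All 10 markers of secretory epithelium were positive with IFNa after IgG, and Zg16 and Fcgbp, products of goblet cells, rose (2.30 and 1.94, edgeR adjusted p = 0.0208 and 0.0227, where 0.619% of all genes rose). Without the Y-linked IgG-IFNa libraries they were at 1.91 and 1.83 and missed the threshold (edgeR adjusted p = 0.309 and 0.297). The summed level of that list was 78.3 to 525 CPM in IgG-PBS, 570 to 1171 in IgG-IFNa, 829 to 1866 in UC7-PBS and 356 to 1231 in UC7-IFNa, so IgG-PBS lay below IgG-IFNa and UC7-PBS and overlapped UC7-IFNa. All 10 were also positive for UC7-13D5 against IgG with PBS (median 1.93). There 0 were called by edgeR or voom and 2 by DESeq2 (69 of all 15835 genes), and 7 had an unadjusted p under 0.05 (5% of all genes). Absorptive enterocyte markers summed to 149 to 260, 201 to 295, 250 to 298 and 208 to 347 CPM, and myeloid markers to 130 to 139, 115 to 169, 160 to 224 and 123 to 164, with Fcgr1, Siglech and Cx3cr1 at 0 in some libraries. Markers of alpha beta T cells summed to 1526 to 1890, 1515 to 2148, 1530 to 1799 and 1683 to 2731 CPM, with Cd6 lower after IFNa in the IgG arm (-1.32, edgeR adjusted p = 0.0468, and -0.99 with 0.586 without those libraries). Of the 7 markers of this list, 3 were positive and 4 negative in that arm, with a median of -0.0065. Over all tested genes 0.208% passed there with a lower level. B and plasma cell markers summed to 324 to 485, 344 to 395, 344 to 397 and 354 to 662 CPM, with Cd79a at 0 in some libraries. Stromal markers summed to at most 35.5 CPM, with Col1a1, Col3a1 and Dcn at 0 in some libraries. The mitochondrial share of counts was 0.866% to 1.73% in IgG-PBS, 0.582% to 0.801% in IgG-IFNa, 1.07% to 1.47% in UC7-PBS and 0.611% to 1.23% in UC7-IFNa. The part of these features in the subunit levels was not tested, and in bulk libraries fewer cells of a type and less RNA per cell cannot be told apart.

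Few other genes of the AP-1 system passed the test. With IFNa after IgG, 0.619% of all tested genes passed with a higher level and 0.208% with a lower one. Of 16 related basic leucine zipper genes, 15 were tested, and 1 rose with IFNa after IgG: Crem, a cyclic AMP-responsive modulator, at 1.17 (SE 0.19, edgeR adjusted p = 0.00873), from 492 to 1112 CPM in group means. Without the Y-linked IgG-IFNa libraries Crem was at 0.87 and missed the threshold (edgeR adjusted p = 0.169). After UC7-13D5 Crem had 0.40 (SE 0.19, edgeR adjusted p = 0.679). Of 23 genes of the MAP kinase route to AP-1, 1 rose with IFNa after IgG, the kinase Braf (0.95, SE 0.20, edgeR adjusted p = 0.0372), and Map3k1, which acts upstream of Jun N-terminal kinase, had 0.79 (edgeR adjusted p = 0.113). Braf was at 0.64 without the Y-linked IgG-IFNa libraries and also missed it (edgeR adjusted p = 0.410). Of 12 partners and antagonists of AP-1, 0 were called by edgeR, voom or DESeq2 in any comparison. Tcf7 had the smallest p with IFNa in both arms (-0.44 after IgG, -0.41 after UC7-13D5). It was the 1 partner with an unadjusted p under 0.05 in each (10.9% and 7.59% of all genes). The medians of these 3 lists lay between -0.018 and 0.075 with IFNa in the 2 arms. In the comparison of UC7-13D5 with IgG with PBS, 0 members of the 3 lists were called by edgeR, voom or DESeq2. An unadjusted p under 0.05 was seen for 1 of the basic leucine zipper genes, 2 of the MAP kinase route and 0 of the partners (5% of all genes). Nfil3 had the smallest p of the basic leucine zipper genes (0.70, edgeR adjusted p = 0.686).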

How the data were processed

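Bulk RNA was sequenced from sorted gd IELs in 13 libraries grouped by their titles. Per the submitters' processing notes the tools were STAR 2.7.8a, Partek and DESeq2 with build mm39, without a role for each. The authors deposited estimated counts per gene, not scaled between libraries and made by a counter that was not stated, of which 38.0% were not whole, and a second table of normalized counts, a signal per gene that equals the first divided by 1 factor per library and was not tested. Estimated counts were rounded, genes were filtered with filterByExpr (minimum count 10), scaled by TMM, and fitted in 1 model of 4 groups with edgeR 4.0.16 in R 4.3.3, by robust quasi-likelihood F tests, two-sided, with Benjamini-Hochberg adjustment over 15835 genes and a threshold of 0.05. Limma 3.58.1 (voom) and DESeq2 1.42.0 served as alternatives. The test was checked on simulated data. The SE is the fold change divided by the square root of F. CPM values used a prior count of 2 on the log2 scale. Gene lengths and GC content came from GENCODE M21 by Ensembl identifier. The members, lists and tests were chosen with earlier results of these data known. Named list genes were members past the threshold, up to 5, or otherwise up to 2 with the smallest p. Likeness was computed for genes whose log2 CPM averaged 3 or more. Alternatives changed the scaling, filter, tool, libraries and covariates. The 95% intervals cover the spread between libraries, and 3 or 4 libraries a group limit the precision.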

Additional observations from a re-analysis of the deposited data

How the results depend on the processing

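Recomputed under up to 22 alternatives (13 of them leaving out 1 library), 810 of 872 subunit values kept their direction and their side of the threshold, 7 no longer passed, 12 passed newly and 43 changed sign, none of the last being called in either fit. For IFNa after IgG, 131 genes were called, against 24 to 430 when 1 library was left out (430 without UC7-IFNa library 2, 24, 37 and 25 without IgG-PBS libraries 1, 2 and 3, 82, 35 and 45 without IgG-IFNa libraries 2, 3 and 4), 406 with DESeq2, 343 with only the 2 groups compared, 24 with the Y-linked share as a covariate and 21 without the IgG-IFNa libraries that held Y-linked transcripts. After UC7-13D5, 57 genes were called, against 29 to 110, 141 with DESeq2 and 22 with only the 2 groups. For UC7-13D5 against IgG with PBS the count was 1, against 0 to 4, 69 with DESeq2, 19 with only the 2 groups, 5 without the Y-linked IgG-IFNa libraries, and 0 with voom or with no filter. With IFNa it was 12, against 0 to 52, 120 with DESeq2, 23 with the covariate, 6 without the Y-linked libraries, 1 with voom and 0 with only the 2 groups. For the interaction it was 0, against 0 to 1 and 5 with DESeq2. With the replicate number as a block, and IgG-IFNa library 4 left out, the counts were 27, 34 and 1 for IFNa after IgG, IFNa after UC7-13D5 and UC7-13D5 against IgG with IFNa. Under that replicate block Jun after IgG was at -1.50 (edgeR adjusted p = 0.0758) and Fosb for UC7-13D5 against IgG with IFNa at -0.21. With group means removed, same-numbered libraries had correlations of -0.53 to 0.33 over 18 pairs, and others -0.54 to 0.55 over 45 pairs. Of 12 libraries, 0 correlated best with their own number. These correlations cannot show whether same-numbered libraries shared a day or an isolation. Fosb after IgG passed with library totals only (-1.30, edgeR adjusted p = 0.0459), voom (-1.29, adjusted p = 0.0309), DESeq2 (-1.26, adjusted p = 0.00499) and only the 2 groups (-1.26, edgeR adjusted p = 0.00240).

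Signs changed as follows. For Atf3, IFNa after IgG gave 0.086 with the covariate and 0.00022 with voom, and UC7-13D5 against IgG with PBS 0.21 with the covariate. For Batf, IFNa after IgG gave -0.00077 with library totals, and UC7-13D5 against IgG with IFNa gave 0.063 with the covariate, 0.0021 with upper-quartile scaling and 0.013 without the Y-linked libraries. For Fosb, UC7-13D5 against IgG with IFNa gave -0.091 with library totals, -0.18 with voom, -0.015 with no filter and -0.13 without the Y-linked libraries, and with PBS 0.24 with the covariate. Fosl2 gave -0.049 with library totals in the comparison with IFNa and 0.036 in the interaction without the Y-linked libraries. Jun gave 0.13 with the covariate in the comparison with IFNa, Junb -0.00091 there with library totals and 0.032 with PBS and the covariate, and Jund -0.12 with IFNa after UC7-13D5 and the covariate. Leaving out 1 library moved Batf after IgG from -0.053 to 0.10 and Atf3 from -0.18 to 0.25. After UC7-13D5 it moved Junb from -0.12 to 0.27, Jund from -0.45 to 0.67 and Batf from -0.28 to 0.077. For UC7-13D5 against IgG with PBS it moved Batf from -0.041 to 0.16 and Atf3 from -0.20 to 0.23. With IFNa it moved Fosb from -0.67 to 0.27, Fosl2 from -0.29 to 0.20, Jun from -0.36 to 0.11, Junb from -0.17 to 0.22 and Batf from -0.23 to 0.11, and in the interaction Batf from -0.32 to 0.034. The cause of these changes was not tested. The 3 or 4 libraries a group limit the precision.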
